A study of Mus musculus with 16 samples.

Results

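The Schwann cell genes described here were S100b, Sox10, Cdh19, Mbp, Pmp22, Prx, Gfra3 and Ngfr, 8 genes with known roles in the glia of peripheral nerves. Their probes were found by the gene name that the array's own annotation gives. All 8 genes had at least 1 probe, 11 probes in all among 55681 distinct probes, out of 34650 gene names on the array. A filter on low signal, which kept a gene when the median log2 signal of its brightest probe over the 16 arrays was at least 5, left 20237 gene names for testing, and 7 of the 8 Schwann cell genes were among them. Gfra3 was below that limit and is given by its values alone.

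Satellite cells are the stem cells of skeletal muscle, and their proliferating progeny are called myoblasts. RNA from myoblasts of male C57Bl/6J mice aged 11 to 13 weeks was measured on one-color mouse expression arrays at 48 or 72 hr of culture, with no drug or genetic change given for any group. Dispersed myoblasts had been grown on gelatin-coated plates, with 1 mouse for each replicate, whereas myofiber-associated myoblasts had been kept on the surface of cultured muscle fibers and were stripped from them with trypsin, with 2 mice for each replicate. Each of the 4 groups (dispersed 48 hr, dispersed 72 hr, myofiber-associated 48 hr and myofiber-associated 72 hr) held 4 arrays, and RNA integrity numbers of at least 7.5 were required. The sample labels name myofibers as the source of every array, the dispersed ones included, so the groups were taken from the label that gives the growth type and the time.

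Between 55.2% and 64.3% of the 59305 gene spots were well above background on each array by the scanner software's own flag, and 0 were saturated. The mean Pearson correlation of an array with the other arrays of its group, across genes, ranged from 0.986 to 0.993. A pair of arrays was treated with reserve. The myofiber-associated 48 hr array of replicate 10+11 pooled 2 preparations and had the lowest of these correlations. The myofiber-associated 72 hr array of replicate 3 had an S100b signal above the rest of its group, with a gap to the next array of 0.785 of the group's range. Where leaving out either array changed a call of a Schwann cell gene, the value is given with and without it. Each culture had a slide of its own, with 8 arrays, which means that an effect of culture and one of slide cannot be told apart. Both times shared each slide, but 72 hr arrays always took columns 1 and 2 and 48 hr arrays columns 3 and 4, and time and slide column cannot be told apart either. With 4 arrays in a group, their number limits how precise each value can be.

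Schwann cells wrap the axons of peripheral nerves, and those around large axons build a myelin sheath from a small set of membrane and cytoskeletal proteins. Their identity depends on the transcription factor Sox10, and after nerve injury or in culture they lose myelin gene expression and express receptors and adhesion molecules of immature Schwann cells, Ngfr among them. In skeletal muscle, Schwann cells accompany the intramuscular nerves and cover the nerve terminals at neuromuscular junctions, and some of these genes are also expressed by other cells of muscle.

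The label was checked against markers of Schwann cells and of myoblasts. Sox10 and S100b were well above background on all 16 arrays and Cdh19 on 9 of 16, while Erbb3, the neuregulin receptor of Schwann cells, was well above background on 0 of 16. The myoblast markers Pax7, Myod1, Myf5, Cdh15 and Des were well above background on all 16. The genes are therefore named here for what they are known to do in Schwann cells, and whether Schwann cells were the source of their RNA in these preparations was not tested. In RNA from a mixed culture, fewer cells of a type and less RNA per cell cannot be told apart.

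Within dispersed cultures, 4 of the 7 tested genes, S100b, Sox10, Cdh19 and Ngfr, fell from 48 to 72 hr, each by close to 1 on the log2 scale, although the size for Cdh19 depended on the background correction. In 1 fit of all 16 arrays, which shares 1 spread, limma called only Sox10 among them. A gene was counted as changed at a limma adjusted p under 0.01, and by that rule 6.35% of all tested genes fell in this comparison. In myofiber-associated cultures limma called 0 of the 7 with time, against 5.5% of all tested genes (3.74% higher and 1.77% lower), while at an unadjusted p under 0.05 2 of 7 were higher and 3 lower, against 23.8% and 17.7% of all tested genes. The change with time differed between the cultures for 1 of 7, Ngfr, whose change was lower in dispersed cultures, as for 2.37% of all tested genes (1.1% had a higher change and 3.47% either). At 48 hr, 6 of 7 were lower in myofiber-associated than in dispersed cultures, against 27.1% of all tested genes (43.2% in either direction), and at 72 hr 3 of 7 were lower, against 15.6% (27.2% in either direction). Both counts hold Cdh19, which passed the filter on low signal only through its dispersed arrays and so had to be lower in the others. These genes, and the lists of other genes below, were chosen with earlier results of these data known. Their counts and medians beside those of all tested genes are therefore descriptions.

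**Figure D1:**
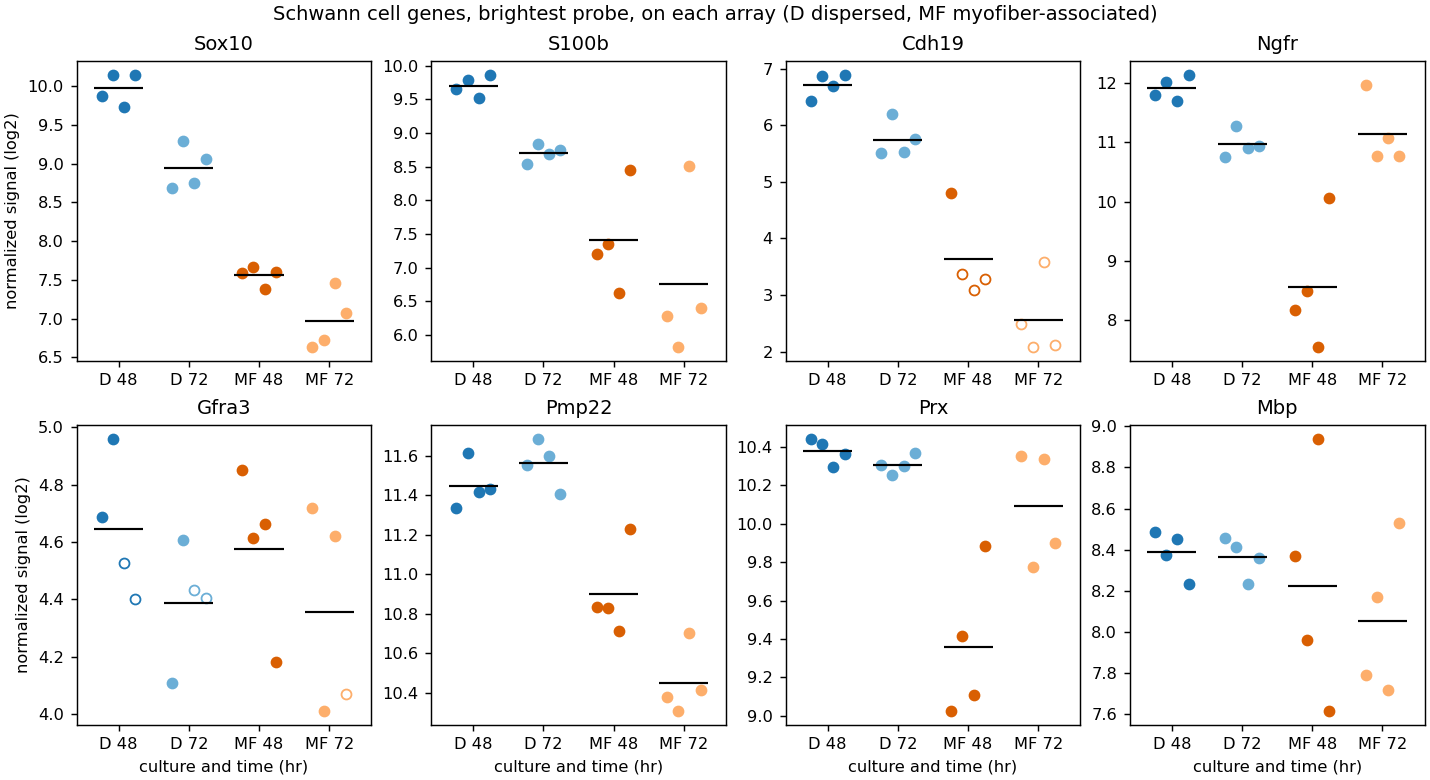
Normalized log2 signal of the 8 Schwann cell genes (vertical axis) on each of the 16 arrays in the 4 groups (horizontal axis), with bars at group means and open markers where the probe was not well above background. S100b, Sox10 and Cdh19 stood highest in dispersed 48 hr cultures, and Ngfr stood lowest in myofiber-associated 48 hr cultures, between 7.55 and 10.06.

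Promoter sequences are shown for 3 of the genes, the calcium-binding protein S100b, the receptor Ngfr and the myelin scaffold Prx, since S100b and Ngfr changed together in dispersed cultures and Ngfr and Prx had a Pearson's r of 0.94 across arrays. RefSeq promoter windows of build GRCm38.p6, matched by symbol, were examined for S100b, Ngfr, Prx and Pmp22. These were 4 of the 8 genes, with 7 windows in all. Each window held 250 bases upstream of an annotated start, printed 5′ to 3′ on the strand of the gene. For the other genes no window was examined, which does not mean that none is annotated. The S100b window was chr10:76253586-76253835 on the plus strand, the Ngfr window chr11:95587699-95587948 on the minus strand and the Prx window chr7:27499074-27499323 on the plus strand.
S100b: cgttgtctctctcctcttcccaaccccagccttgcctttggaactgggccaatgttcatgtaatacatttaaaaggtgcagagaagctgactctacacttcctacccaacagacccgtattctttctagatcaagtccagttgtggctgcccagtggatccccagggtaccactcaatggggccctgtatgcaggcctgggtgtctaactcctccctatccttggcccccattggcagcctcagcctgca
Ngfr: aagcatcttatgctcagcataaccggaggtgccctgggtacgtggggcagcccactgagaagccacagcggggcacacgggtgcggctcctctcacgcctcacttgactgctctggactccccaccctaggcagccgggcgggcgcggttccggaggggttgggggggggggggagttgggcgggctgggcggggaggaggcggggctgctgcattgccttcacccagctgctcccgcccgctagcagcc
Prx: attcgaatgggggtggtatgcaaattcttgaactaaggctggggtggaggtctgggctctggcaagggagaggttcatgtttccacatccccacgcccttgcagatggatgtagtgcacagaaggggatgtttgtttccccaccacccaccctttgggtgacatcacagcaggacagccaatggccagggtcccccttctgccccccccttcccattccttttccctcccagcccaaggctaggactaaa
Both strands of each window were searched for the Sox letters ACAAAG and ACAATG and the Egr letters GCGTGGGCG, of which the 2 Sox sequences share their first 4 letters. All 7 windows held 0 matches to each of them, while 16.5%, 10.7% and 0.536% of 32851 promoter windows of the same length held them. No match says only that these letters are not in this window.

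Sox10 encodes the transcription factor that specifies and maintains the Schwann cell lineage, and its probe lay at chr15:78985518-78985577 of build mm9, the build of the array annotation. Throughout, values are normalized log2 signals given array by array in the order of replicates 1 to 4 for dispersed 48 hr, 5 to 8 for dispersed 72 hr, 7, 8, 9 and 10+11 for myofiber-associated 48 hr, and 1 to 4 for myofiber-associated 72 hr. In dispersed cultures Sox10 was 9.87, 10.15, 9.73 and 10.14 at 48 hr and 8.68, 9.29, 8.76 and 9.05 at 72 hr. In myofiber-associated cultures it was 7.59, 7.67, 7.38 and 7.60 at 48 hr and 6.63, 6.72, 7.46 and 7.08 at 72 hr. Every dispersed array was thus above every myofiber-associated array, and within dispersed cultures the 4 arrays of 48 hr were all above the 4 of 72 hr, while the myofiber-associated times overlapped at 7.38 and 7.46. From 48 to 72 hr Sox10 fell by 1.03 on the log2 scale in dispersed cultures (SE 0.15, a 2.04-fold difference, limma adjusted p = 0.00235). The difference with time in myofiber-associated cultures was -0.59 (adjusted p = 0.0509), lower on 4 of 4 arrays than the 48 hr mean, and the test of the difference between these changes gave -0.44 (adjusted p = 0.224). Myofiber-associated cultures were 5.33-fold lower at 48 hr (log2 difference -2.41, SE 0.12, adjusted p = 2.8e-06) and 3.93-fold lower at 72 hr (-1.97, SE 0.21, adjusted p = 2.6e-04). These 3 calls were made under each of the 17 alternatives run for them. The order of levels was dispersed 48 hr, dispersed 72 hr, myofiber-associated 48 hr and myofiber-associated 72 hr, and the difference of the last pair missed the adjusted threshold.

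S100b, a calcium-binding protein long used to stain Schwann cells, was measured by a probe at chr10:75723783-75723842 of mm9. Its signals in dispersed cultures were 9.65, 9.78, 9.52 and 9.86 at 48 hr and 8.54, 8.84, 8.69 and 8.75 at 72 hr. Those in myofiber-associated cultures were 7.20, 7.35, 6.62 and 8.45 at 48 hr and 6.29, 5.82, 8.51 and 6.40 at 72 hr. The dispersed groups were tight and separate, whereas the myofiber-associated groups were wide, with 1 high array in each, replicate 10+11 at 48 hr and replicate 3 at 72 hr. Even these high arrays lay just under the lowest dispersed array, 8.54. S100b fell by 0.996 from 48 to 72 hr in dispersed cultures (SE 0.091, 1.99-fold, adjusted p = 2.3e-04, with all 4 arrays of 72 hr below all 4 of 48 hr). With a spread shared by all 16 arrays in 1 fit, the adjusted p of this fall was 0.218. In myofiber-associated cultures the difference was -0.65 with an SE of 0.61 (adjusted p = 0.442), and 3 of 4 arrays of 72 hr were below all 4 of 48 hr. Under the 18 alternatives run for it, single arrays left out among them, this difference lay between -1.24 and -0.30. The lowest limma adjusted p was 0.0387. At 48 hr S100b was 4.91-fold lower in myofiber-associated cultures (-2.30, SE 0.34, adjusted p = 6.4e-04). At 72 hr the difference was -1.95 with an SE of 0.52, and its adjusted p of 0.0168 missed the threshold (0.0037 in the fit of all 16 arrays), although all 4 myofiber-associated arrays were below all 4 dispersed arrays. Without replicate 3 this difference was -2.54 (adjusted p = 4.4e-05), and without that array and the pooled array it was -2.56 (adjusted p = 4.2e-05). Replicate 3 was picked for its own S100b signal, so these calls are no support for the difference. The levels of S100b had the same order as those of Sox10, and the last pair did not differ beyond its spread. The difference between the changes with time was -0.35 (adjusted p = 0.733) and turned to 0.24 without replicate 3.

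Cdh19, a cadherin of the Schwann cell lineage, had a probe at chr1:112785846-112785905 of mm9 and was the closest to background of the tested members. On dispersed arrays it was 6.42, 6.86, 6.69 and 6.89 at 48 hr and 5.51, 6.20, 5.52 and 5.75 at 72 hr, well above background on all 8. The myofiber-associated signals were 4.80, 3.37, 3.09 and 3.28 at 48 hr and 2.50, 2.08, 3.58 and 2.11 at 72 hr. Only replicate 7 at 48 hr was well above background among these 8 arrays, so the myofiber-associated level was bounded from above rather than measured at 72 hr. In dispersed cultures Cdh19 fell by 0.97 (SE 0.17, 1.96-fold, adjusted p = 0.00491), with no overlap between times. This call was lost with no filter on low signal (adjusted p = 0.0143) and in the fit of all 16 arrays (adjusted p = 0.116). Myofiber-associated cultures were lower at 48 hr by a measured difference of -3.08 (SE 0.35, adjusted p = 1.8e-04, 4 of 4 arrays), with 1 of their 4 arrays well above background. With the other 3 at the limit of their array, dispersed cultures were at least 6.21-fold higher. Cdh19 passed the filter on low signal only through its dispersed arrays, all of them above every myofiber-associated one, so its calls between cultures rest on a filter that its high groups alone met. At 72 hr, dispersed cultures were at least 4.19-fold higher (adjusted p = 2.5e-04, 4 of 4 arrays), or at least 3.65-fold with a stricter limit, measured log2 means being 5.74 and 2.57. The bound sets the dispersed mean against the lowest signal that was well above background on each dim array, and the stricter limit is the 99th percentile of probes not well above background. With the normexp background correction, whose offset of 50 raises dim signals, Cdh19 differed by less, -0.53 with time in dispersed cultures and -1.07 and -0.68 between cultures at 48 and 72 hr, each still called. No fold is given between the myofiber-associated times, whose difference had an adjusted p of 0.112.

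The 4 genes that fell in dispersed cultures did so by like amounts. Among the 6 pairs that can be made of S100b, Sox10, Cdh19 and Ngfr, the largest difference between falls was 0.079 on the log2 scale, and the largest SE of such a difference was 0.14. The pairs were formed after the values were seen, and the differences are a description. With normexp, Cdh19 differed by -0.53 with time where S100b, Sox10 and Ngfr differed by between -0.94 and -0.89, so the likeness of Cdh19 to the others did not hold under that correction.

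Ngfr encodes the low-affinity neurotrophin receptor p75, which marks immature and non-myelinating Schwann cells and is also made by other cells. Its probe, at chr11:95430211-95430270 of mm9, was printed in 10 spots on each array, and their mean was used. Dispersed arrays gave 11.80, 12.02, 11.70 and 12.14 at 48 hr and 10.75, 11.27, 10.90 and 10.94 at 72 hr. Myofiber-associated arrays gave 8.18, 8.49, 7.55 and 10.06 at 48 hr and 11.96, 10.77, 11.07 and 10.77 at 72 hr. The myofiber-associated 48 hr group was below every other array, and its highest array was again the pooled one, while at 72 hr the cultures overlapped. Ngfr fell by 0.95 in dispersed cultures (SE 0.13, 1.93-fold, adjusted p = 0.00173), a call that the fit of all 16 arrays did not give (adjusted p = 0.172). In myofiber-associated cultures it was higher at 72 hr on 4 of 4 arrays, by 2.57 (SE 0.52, 5.95-fold), but the adjusted p of 0.0133 missed the threshold. Without the pooled array this difference was 3.08 (adjusted p = 0.00193), without it and replicate 3 of 72 hr it was 3.10 (adjusted p = 0.00548), and 1 fit of all 16 arrays gave it an adjusted p of 2.8e-04.

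The change of Ngfr with time differed between the cultures. The change in dispersed minus that in myofiber-associated cultures was -3.52 (SE 0.57, adjusted p = 0.00254), and every array of 72 hr lay below the 48 hr mean in dispersed cultures and above it in myofiber-associated cultures. Under the 25 alternatives run for this test the difference lay between -4.05 and -3.18, with a highest adjusted p of 0.00739. At 48 hr Ngfr was 10.2-fold lower in myofiber-associated cultures (-3.34, SE 0.47, adjusted p = 4.9e-04, 4 of 4 arrays). At 72 hr the difference was 0.18 (SE 0.26, adjusted p = 0.613) and turned to -0.095 without replicate 1 of the myofiber-associated arrays. The levels ran from dispersed 48 hr down through myofiber-associated 72 hr and dispersed 72 hr, which did not differ beyond their spread, to myofiber-associated 48 hr.

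Gfra3, the co-receptor for the GDNF family ligand artemin, was near background throughout. It was well above background on 2, 2, 4 and 3 of 4 arrays of dispersed 48 hr, dispersed 72 hr, myofiber-associated 48 hr and myofiber-associated 72 hr, 11 of 16 in all. The group means were 4.64, 4.39, 4.58 and 4.35, and the signals of every pair of groups overlapped. Its median of 4.57 was under the filter's limit, so it has no limma test.

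Pmp22, a membrane protein of compact myelin that many other cells also make, had 2 probes. The brighter, at chr11:62972989-62973048 of mm9, entered the tests. In dispersed cultures it read 11.33, 11.62, 11.42 and 11.43 at 48 hr and 11.55, 11.69, 11.60 and 11.40 at 72 hr. In myofiber-associated cultures it read 10.84, 10.83, 10.71 and 11.23 at 48 hr and 10.38, 10.31, 10.70 and 10.41 at 72 hr. All dispersed arrays were above all myofiber-associated arrays, the dispersed times overlapped, and the myofiber-associated times just missed each other, at 10.71 and 10.70. At 72 hr Pmp22 was 2.16-fold lower in myofiber-associated cultures (-1.11, SE 0.10, adjusted p = 1.4e-04), a call made in each of the 17 alternatives run for it, with a difference of -0.71 for the mean of both probes. At 48 hr it was 1.46-fold lower (-0.55, SE 0.12, adjusted p = 0.00533). This call was lost under 9 of the 17 alternatives, namely with no filter on low signal (adjusted p = 0.0109), with the slide row as a block (0.0166), and without replicate 1, 2, 3 or 4 of the dispersed arrays (adjusted p = 0.0103, 0.0185, 0.0151 and 0.0152) or replicate 7, 8 or 9 of the myofiber-associated arrays (0.0173, 0.0156 and 0.0151). Of the 8 arrays left out 1 at a time, only the pooled array left the call in place. The difference with time was 0.11 in dispersed cultures (adjusted p = 0.347) and -0.45 in myofiber-associated cultures (SE 0.14, adjusted p = 0.0502, lower on 4 of 4 arrays). The test of the difference between these changes gave 0.56 (adjusted p = 0.0343), and 0.54 without the pooled array and replicate 3 of 72 hr (adjusted p = 0.00824). The other Pmp22 probe, at chr11:62971862-62971921, did not separate the groups. Its means were 9.62, 9.44, 9.39 and 9.13, with overlapping signals in every comparison, so the results for Pmp22 rest on 1 of 2 probes.

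Prx encodes periaxin, a scaffold protein of myelinating Schwann cells, and was measured at chr7:28304999-28305058 of mm9. Its dispersed signals, 10.44, 10.42, 10.30 and 10.36 at 48 hr and 10.31, 10.25, 10.30 and 10.37 at 72 hr, were nearly level. The myofiber-associated signals were 9.03, 9.42, 9.11 and 9.88 at 48 hr and 10.35, 9.77, 10.34 and 9.90 at 72 hr. At 48 hr every myofiber-associated array was below every dispersed one, the pooled array least so, and at 72 hr the cultures overlapped. Prx was 2.03-fold lower in myofiber-associated cultures at 48 hr (-1.02, SE 0.18, adjusted p = 0.00148), and the difference at 72 hr was -0.22 (adjusted p = 0.235). The change with time was -0.073 in dispersed cultures (adjusted p = 0.298) and 0.73 in myofiber-associated cultures (adjusted p = 0.0459), where all 4 arrays of 72 hr were above the 3 unpooled arrays of 48 hr and 3 were also above the pooled one. Their difference was -0.81 (adjusted p = 0.0353), which passed the threshold without the pooled array (-0.98, adjusted p = 0.00311) and without it and replicate 3 (-0.90, adjusted p = 0.00564).

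Mbp, the myelin basic protein gene, had 3 probes, none of which separated any groups. The brightest read 8.49, 8.37, 8.45 and 8.23 in dispersed cultures at 48 hr, 8.45, 8.41, 8.23 and 8.36 at 72 hr, and in myofiber-associated cultures 8.37, 7.96, 8.94 and 7.61 at 48 hr and 7.79, 8.17, 7.71 and 8.53 at 72 hr. Dispersed arrays were tight and myofiber-associated arrays spread on both sides of them. The limma adjusted p of this probe was 0.852 for time in dispersed cultures, 0.691 for time in myofiber-associated cultures, 0.773 for their difference, 0.594 between cultures at 48 hr and 0.176 at 72 hr. The second probe leaned the opposite way between cultures, with differences of 0.36 at 48 hr and 0.34 at 72 hr where the first gave -0.17 and -0.31, all with overlapping groups. The third was well above background on 2 of 16 arrays.

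**Figure D2:**
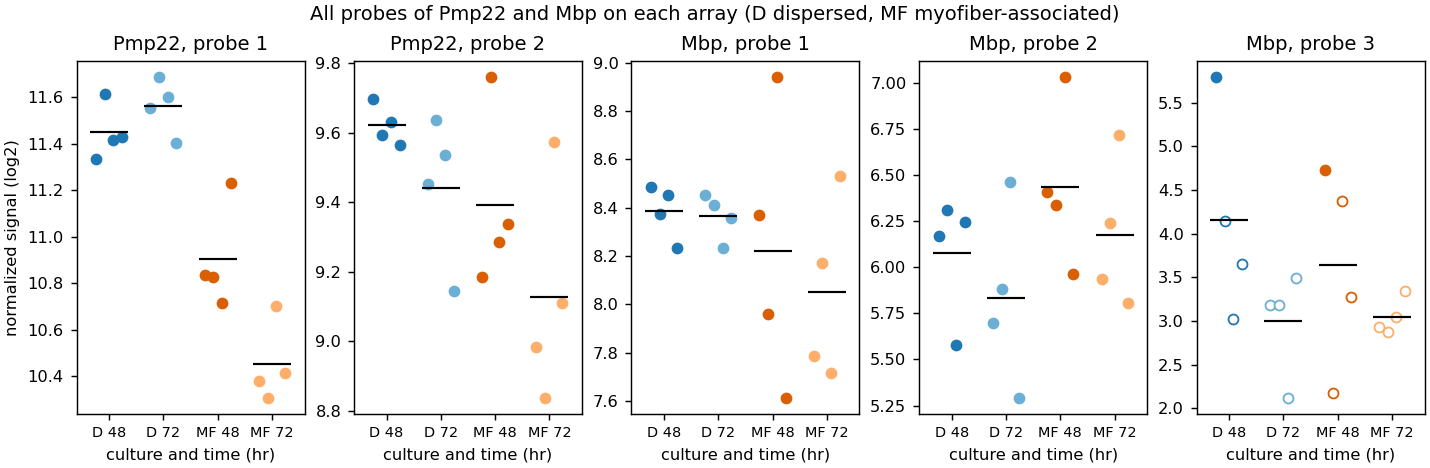
Normalized log2 signal (vertical axis) of each of the 2 Pmp22 and 3 Mbp probes on the 16 arrays by group (horizontal axis), with bars at group means. Only the brighter Pmp22 probe separated the cultures, and the dimmest Mbp probe was well above background on 2 of 16 arrays.

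Side by side, the 5 comparisons share arrays and are given for each gene by its own values. In dispersed cultures the median change of the 7 tested genes was -0.95, against 0.022 over all 20237 tested genes, and 4 of 7 were lower with no overlap of the 4 arrays of each time, as were 13.7% of all tested genes. In myofiber-associated cultures the median was -0.45, against 0.063. There, 1 of 7 was higher with no overlap, Ngfr, against 15.9% of all tested genes, and 1 was lower, Pmp22, against 10.4%. The difference between the changes had a median of -0.35, against -0.068. Between cultures the median was -2.30 at 48 hr, against -0.12, and -1.11 at 72 hr, against -0.023. The groups did not overlap for 6 of 7 genes at 48 hr, all lower, against 35.3% of all tested genes, and for 4 of 7 at 72 hr, all lower, against 26.1% lower and 20.4% higher. Without Cdh19, which had to be lower through the filter, the groups did not overlap for 5 of 6 at 48 hr and 3 of 6 at 72 hr, and the medians were -1.66 and -0.71. The shift of -0.12 over all tested genes at 48 hr was -0.052 over all 34650 genes with no filter and -0.021 over the same number with the normexp correction. Relative to the shift of -0.12, the 6 genes lower at 48 hr ran from -0.42 for Pmp22 to -3.22 for Ngfr. For 4 arrays against 4, the smallest p that an exact two-sided permutation test of a single gene can give is 0.0286.

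**Figure D3:**
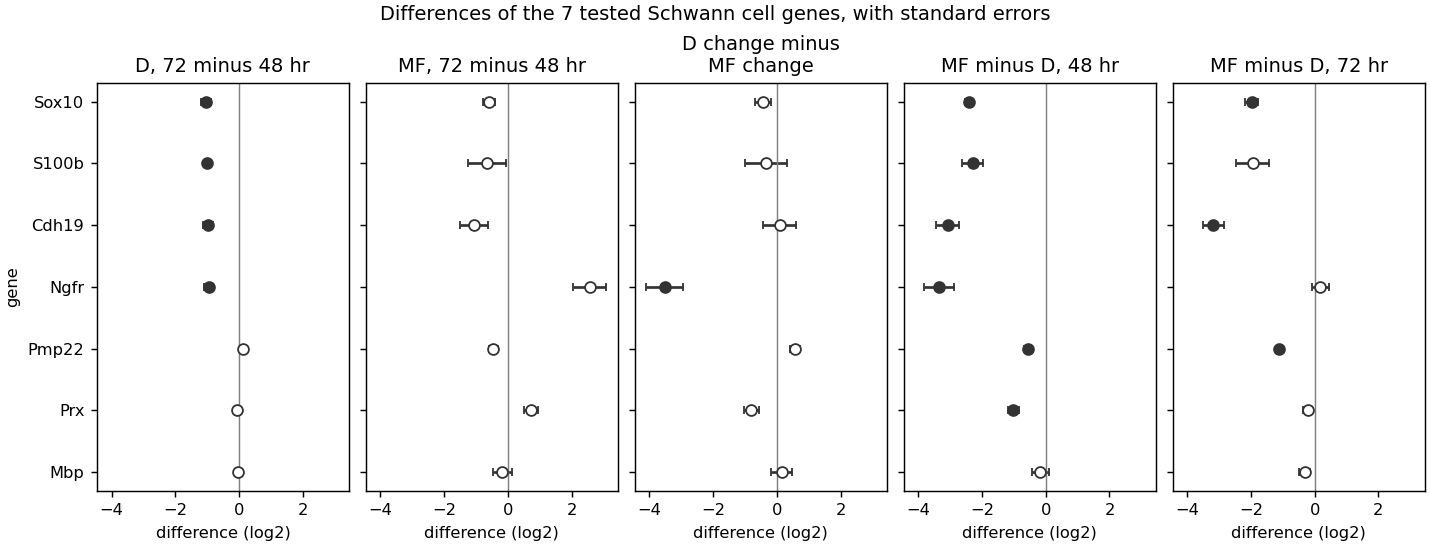
Log2 differences (horizontal axis, with SE as error bars) of the 7 tested Schwann cell genes in the 5 comparisons, filled where the limma adjusted p was under 0.01. The differences between cultures at 48 hr were filled for 6 genes, and the difference between the changes with time only for Ngfr, at -3.52.

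Likeness to other genes was measured by Pearson's r of the normalized log2 signal over the 16 arrays, among 22830 genes that were well above background on every array of at least 1 group. These values are descriptions, since the 16 arrays share cultures, times and slides. Nearest to Sox10 were Apod, Sox2 and Stap2, each at 0.98, and nearest to S100b were Ifitm3 (0.98), Cx3cl1 (0.97) and P2rx7 (0.97). Cdh19 was nearest to Vgll4 (0.99), B3galt5 (0.98) and Trim21 (0.98), and Pmp22 to Gata6, Rnd1 and Tm4sf1, each at 0.98. With each group's mean taken off, so that only differences within groups count, the nearest to Sox10 was Lgi4 (0.84), a secreted Schwann cell protein. By the same measure Ngfr was nearest to Ypel1 (0.95), Unc5b (0.95) and Dgkh (0.94), and Prx to Orai2, Whrn and Ewsr1, each at 0.97. Among the 3 nearest to Pmp22 were Gpr84 (0.93) and Brinp1 (0.92), and Mbp was nearest to Gm12059 (0.97), Akt2 (0.96) and Acadl (0.96).

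Among the Schwann cell genes themselves, r was 0.97 between Sox10 and Cdh19, 0.93 between Sox10 and S100b, and 0.94 between Ngfr and Prx. Cdh19 was well above background on 9 of 16 arrays, so its values of r and its nearest genes rest in part on signals near the floor. The same holds for Sox2, with myofiber-associated means of 2.97 and 2.52, and for B3galt5 (3.03 and 2.46). With group means taken off, r was 0.69 between Sox10 and S100b, 0.83 between Ngfr and Prx, and 0.82 between S100b and Pmp22. Mbp ran opposite to Ngfr (-0.82) and to Prx (-0.81) within groups. Many other genes were closer to Prx than Ngfr was, which ranked 288 of 22829 by the signal and 957 within groups, and in dispersed cultures Ngfr fell with time where Prx was nearly level.

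The other Schwann cell genes were counted in lists. The shares of all tested genes to set beside these counts, here and for the lists after them, were 7.38% higher and 6.35% lower in dispersed cultures, 3.74% and 1.77% in myofiber-associated cultures, and 1.1% and 2.37% for the difference between the changes. Between cultures they were 16.1% higher and 27.1% lower at 48 hr and 11.6% and 15.6% at 72 hr. These shares do not hold for counts at an unadjusted p under 0.05, in this list or those after it. The unadjusted shares of all tested genes were 21.8% higher and 16.9% lower in dispersed cultures and 23.8% and 17.7% in myofiber-associated cultures. For the difference between the changes they were 14.8% higher and 19.5% lower. Among 15 transcription factors of the lineage, 13 were tested. In dispersed cultures 2 rose and 3 fell with time, and in myofiber-associated cultures 2 rose. For the difference between the changes limma called 0, with 2 higher and 6 lower at an unadjusted p under 0.05. Between cultures, 4 were lower in myofiber-associated cells at 48 hr, and 2 were higher and 2 lower at 72 hr. The medians of the list in the 5 comparisons, in the order in which they were given above, were 0.056, 0.14, -0.28, -0.083 and -0.073. Foxd3, a neural crest factor, fell by 1.19 in dispersed cultures (adjusted p = 8.4e-04) and was lower in myofiber-associated cultures at 48 hr (-2.64, adjusted p = 8.0e-06). Its dispersed 48 hr signals lay between 7.83 and 8.20 and its myofiber-associated 48 hr signals between 5.05 and 5.70, and it was well above background on 1 of 4 arrays of myofiber-associated 72 hr. Tfap2a, a neural crest factor as well, fell by 0.93 in dispersed cultures (adjusted p = 0.00278) and differed between cultures by -1.55 at 48 hr and -0.75 at 72 hr. Etv1, an ETS factor downstream of receptor tyrosine kinases, moved the other way, rising by 1.15 in dispersed and by 2.12 in myofiber-associated cultures, and differed between cultures by 1.36 at 72 hr.

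Of 20 other myelin genes 12 were tested. In dispersed cultures 3 fell, and in myofiber-associated cultures limma called 0, with 3 higher and 4 lower at an unadjusted p under 0.05. It also called 0 for the difference between the changes, with 2 higher and 3 lower unadjusted. Myofiber-associated cells had 2 higher and 4 lower at 48 hr and 2 higher and 2 lower at 72 hr. The medians were -0.33, -0.12, -0.37, 0.095 and 0.22. Ncmap, a small membrane protein of non-compact myelin, fell by 0.94 in dispersed cultures (adjusted p = 0.00208) and was lower in myofiber-associated cultures, with differences of -2.42 at 48 hr (adjusted p = 4.8e-06) and -2.11 at 72 hr, with 3 of 4 myofiber-associated arrays well above background at 72 hr. Nfasc, the adhesion molecule neurofascin, fell by 1.12 in dispersed cultures and was at least 3.09-fold higher in dispersed cultures at 48 hr, where 2 of 4 myofiber-associated arrays were well above background. This and the like bounds below take an array not well above background at its limit, or at its own signal where that was higher. Nfasc passed the filter on low signal through its dispersed arrays, since its myofiber-associated means were 4.70 and 4.43, under the limit of 5. It is among the 4 lower at 48 hr. Fgf13 was higher in myofiber-associated cultures at 48 hr, by 2.38.

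Of 21 other Schwann lineage genes on the array 17 were tested, with a median between cultures of -2.08 at 48 hr. At that time 9 were lower in myofiber-associated cultures and 1 higher, and at 72 hr 9 were lower and 2 higher. With time, 3 rose and 3 fell in dispersed cultures, 3 rose and 1 fell in myofiber-associated cultures, and 3 had a lower change in dispersed than in myofiber-associated cultures. The other medians were -0.24, 0.33, -0.21 and -0.40. Gap43, a growth cone protein also made by immature Schwann cells, read between 9.60 and 10.75 in dispersed and between 6.32 and 7.63 in myofiber-associated cultures at 48 hr, a difference of -3.44 (adjusted p = 7.6e-05), and differed by -4.53 at 72 hr (adjusted p = 5.5e-05). Kcna1, a potassium channel subunit, fell by 1.06 in dispersed cultures and was at least 10.8-fold higher in dispersed cultures at 48 hr, where 3 of 4 myofiber-associated arrays were well above background. Chl1, an adhesion molecule of the L1 family, was at least 10.3-fold higher in dispersed cultures at 48 hr, with 2 of 4 myofiber-associated arrays well above background and 0 of 4 at 72 hr, and it passed the filter on low signal only through its dispersed arrays. Kcna1 likewise passed through its dispersed arrays, with myofiber-associated means of 4.46 and 3.52 under the limit of 5, so the 9 lower at each time hold genes that had to be high in dispersed cultures to be tested.

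Ligands and receptors around Gfra3 and Ngfr were also followed. Of 9 genes of the GDNF family 8 were tested, with 1 rising and 3 falling in dispersed cultures and 2 rising and 2 falling in myofiber-associated cultures. For 1 gene the change was lower in dispersed cultures, 1 was lower in myofiber-associated cultures at 48 hr, and at 72 hr 2 were higher and 1 lower. The medians were -0.24, -0.0026, -0.15, 0.13 and 0.28. Gdnf itself fell by 0.80 in dispersed and by 1.37 in myofiber-associated cultures, and Gfra2, the neurturin co-receptor, fell by 0.35 and by 1.75 and differed between cultures by -1.77 at 72 hr. Sdc3, a heparan sulfate proteoglycan that binds GDNF family ligands, rose by 1.26 in myofiber-associated cultures, where its change was higher than in dispersed cultures, a difference of -1.17 (adjusted p = 0.00483), and it was 0.75 higher in them at 72 hr.

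Of 16 neurotrophins, neuregulins and their receptors or partners, 12 were tested. In dispersed cultures 3 rose and 1 fell, in myofiber-associated cultures 2 rose, and for 1 the change was lower in dispersed cultures. Myofiber-associated cells had 3 higher and 4 lower at 48 hr and 1 higher and 4 lower at 72 hr. The medians were 0.30, 0.18, 0.43, -0.68 and -0.24. Sorcs2, a co-receptor of p75, rose by 1.92 in myofiber-associated cultures (adjusted p = 0.00249), had a lower change in dispersed cultures, a difference of -1.41 (adjusted p = 0.0069) and was lower in myofiber-associated cultures at 48 hr, with a difference of -1.10. Bex1, which binds the intracellular part of p75, fell by 0.95 in dispersed cultures and was higher in myofiber-associated cultures by 4.17 at 48 hr and 3.46 at 72 hr. Ntf5, neurotrophin-4, was at least 16.2-fold higher in myofiber-associated cultures at 48 hr, where dispersed signals were well above background on 2 of 4 arrays.

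Markers of other cell types moved between the groups as well, and their part in the results for the Schwann cell genes was not tested. The lists are described by the summed normalized signal of their genes on each array, on the linear scale. The 10 endothelial markers were all tested and were well above background on every array of all 4 groups. With time 9 of 10 fell in dispersed and 8 of 10 in myofiber-associated cultures, and in myofiber-associated cultures 9 were lower at 48 hr and 8 at 72 hr, while the change of 1, Emcn, differed between cultures. Their medians were -1.47, -1.99, 0.29, -2.56 and -2.71. In dispersed cultures the endothelial sum was 104751, 116512, 127317 and 140930 at 48 hr and 38490, 46363, 54886 and 47050 at 72 hr. In myofiber-associated cultures it was 28027, 30259, 19775 and 41400 at 48 hr and 13182, 15245, 12461 and 13291 at 72 hr. The means of its groups were in the order of those of Sox10 and S100b, whose own differences between the myofiber-associated times missed the threshold, and the pooled array was the highest of its group as it was for S100b, Ngfr, Pmp22 and Prx. The brightest gene was Egfl7, and Kdr in myofiber-associated 72 hr cultures. Cdh5, the cadherin of endothelial junctions, fell by 1.46 in dispersed and by 2.49 in myofiber-associated cultures, and Emcn differed between cultures by -3.23 at 48 hr and -5.56 at 72 hr.

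Of 10 fibroblast markers 9 were tested, with 1 falling in dispersed and 3 in myofiber-associated cultures, 1 change higher and 1 lower in dispersed cultures, 3 lower in myofiber-associated cells at 48 hr, and 1 higher and 6 lower at 72 hr. The medians were -0.054, -1.16, 1.05, -0.43 and -1.48. Their sum had means of 177034, 168202, 146872 and 72472 in dispersed 48 hr, dispersed 72 hr, myofiber-associated 48 hr and myofiber-associated 72 hr cultures. The pooled array reached 224241. The order of these means was that of the endothelial sum, and the pooled array was again the highest of its group, so neither was particular to the endothelial markers. Dcn was the brightest gene. Ly6a fell by 2.35 in dispersed cultures, Fbln2 differed between cultures by -3.19 at 72 hr, and Dpt fell in myofiber-associated cultures, where it was at least 8.17-fold higher at 48 hr, with 3 of 4 arrays of 72 hr well above background.

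All 10 pericyte and smooth muscle markers were tested. With time 1 rose and 3 fell in dispersed cultures, 1 rose and 1 fell in myofiber-associated cultures, and 1 change was lower in dispersed cultures. Between cultures 2 were higher and 4 lower at 48 hr, and 1 higher and 2 lower at 72 hr. The medians were -0.44, -0.92, -0.26, -0.73 and -0.10, and the mean sums were 101623, 111282, 115217 and 79428. Acta2 was brightest in dispersed cultures and Des, which the myogenic list also holds, in myofiber-associated cultures. Acta2 differed between cultures by -4.45 at 48 hr, and Myh11 was at least 10.9-fold higher in dispersed cultures, with 3 of 4 myofiber-associated arrays well above background. Myh11 passed the filter on low signal through its dispersed arrays, since its myofiber-associated means were 4.96 and 3.38.

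Of 9 leukocyte markers on the array 8 were tested, with 1 rising and 4 falling in dispersed cultures, 1 rising in myofiber-associated cultures and 1 change lower in dispersed cultures. In myofiber-associated cells 1 was higher and 4 lower at 48 hr and 1 higher and 3 lower at 72 hr. The medians were -0.55, -0.34, 0.21, -0.93 and -0.94. The mean sums were 18801, 16391, 25321 and 18128, with Cd68 brightest in myofiber-associated 48 hr cultures and Itgam elsewhere. Ptprc, the pan-leukocyte surface marker, was near background, with means of 4.98, 4.46, 4.62 and 3.71. Tyrobp fell by 1.08 in dispersed cultures, and Laptm5 rose by 0.90 and by 2.55.

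**Figure D4:**
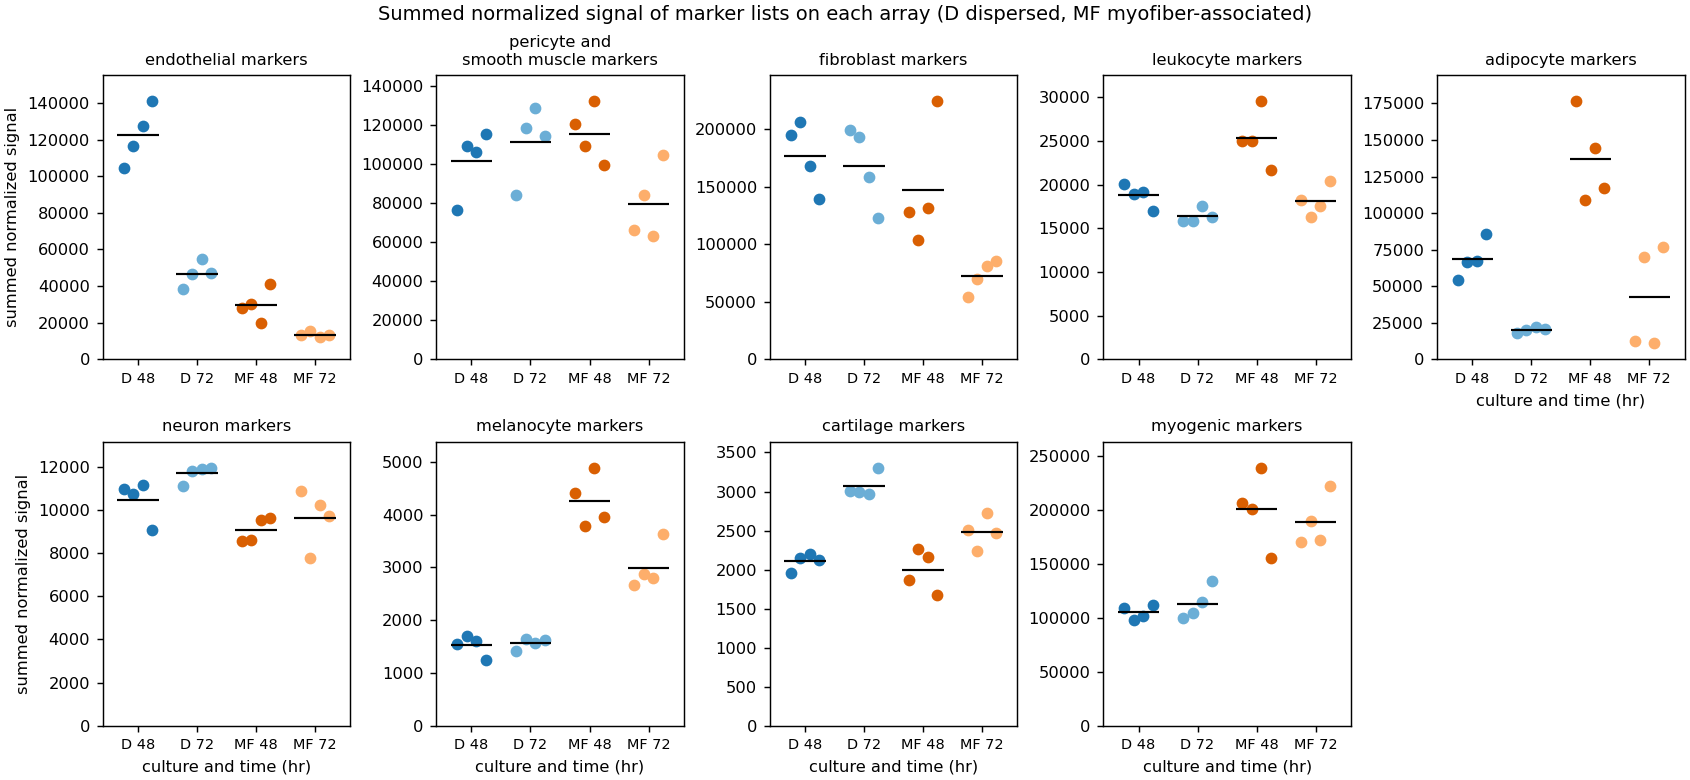
Summed normalized signal (vertical axis, linear) of 9 lists of marker genes on each of the 16 arrays by group (horizontal axis), with bars at group means. The endothelial sum was highest in dispersed 48 hr cultures, at a mean of 122377, and lowest in myofiber-associated 72 hr cultures, at 13545.

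The myogenic markers, those of the labelled cell type, had 10 of 11 tested. In dispersed cultures 3 rose and 1 fell, in myofiber-associated cultures 2 rose, and 1 change was higher and 1 lower in dispersed cultures. In myofiber-associated cells 2 were higher and 3 lower at 48 hr and 4 higher at 72 hr. The medians were 0.24, 0.35, -0.35, -0.23 and 0.48, and the mean sums 105232, 113176, 200590 and 188928, with Itga7 brightest. Myog, the factor of differentiating myoblasts, was 8.25 higher in myofiber-associated cultures at 48 hr and 3.70 higher at 72 hr, and rose by 3.92 in dispersed cultures. Pax7, the satellite cell factor, rose by 1.68 in myofiber-associated cultures and was lower there at 48 hr, with a difference of -0.86, and Des was 4.05 higher at 48 hr.

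Of 12 neuron markers 6 were tested. Limma called 0 with time in dispersed cultures (1 higher unadjusted), 0 in myofiber-associated cultures (1 higher and 3 lower) and 0 for the difference between them (3 higher and 1 lower), and 2 were lower in myofiber-associated cultures at each time. The medians were 0.14, -0.21, 0.23, -0.27 and -0.11, and the mean sums 10485, 11692, 9088 and 9643, with Snap25 brightest. Nefl differed between cultures by -2.14 at 48 hr and -3.25 at 72 hr, and Nefm by -1.92 and -3.24. Stmn2 was well above background on every dispersed array and on no myofiber-associated array.

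Of 8 adipocyte markers 3 were tested. In each culture 1 fell with time, and limma called 0 for the difference (0 at an unadjusted p under 0.05). At 48 hr 1 was higher and 2 lower in myofiber-associated cultures and at 72 hr 1 was higher and 1 lower. The medians were -1.74, -2.06, 0.14, -1.96 and -0.84, and the mean sums 68483, 20291, 136716 and 42667. Fabp4, brightest in dispersed cultures, fell by 1.74 and by 2.06, and Car3, which skeletal muscle also makes in quantity, was brightest in myofiber-associated cultures and 7.74 higher there at 48 hr. Adipoq was well above background on 3 of 16 arrays, and Cidec on no myofiber-associated array, while Plin1 was on 4, 0, 4 and 3 of 4 arrays of dispersed 48 hr, dispersed 72 hr, myofiber-associated 48 hr and myofiber-associated 72 hr. Within myofiber-associated 72 hr cultures the adipocyte sum was 12655 and 11414 on replicates 1 and 3 but 69971 and 76625 on replicates 2 and 4. Car3 led this sum, with log2 signals between 13.22 and 16.19 in this group, against 10.67 to 11.46 for Fabp4. The list of other Schwann lineage genes summed to 42304 and 38754 on replicates 1 and 3 and to 25250 and 23420 on replicates 2 and 4. Its brightest gene in this group was Ncam1, at a mean log2 signal of 14.05. Prx, at 10.35 and 10.34 against 9.77 and 9.90, parted the same arrays. So did Ngfr, at 11.96 and 11.07 against 10.77 on both, as well as Gfra3 and Cdh19 near or below background, while the brightest Mbp probe parted them the opposite way, at 7.79 and 7.71 against 8.17 and 8.53. S100b, Sox10 and the brighter Pmp22 probe did not part these arrays. Many other list sums did, in either direction, while the fibroblast and leukocyte sums did not. The Schwann transcription factors summed to 99786 and 94914 on replicates 1 and 3 against 88845 and 85838. The myogenic markers summed to 170638 and 172692 against 189994 and 222388. Replicates 1 and 3 were in slide column 1 and replicates 2 and 4 in column 2, so preparation and column cannot be told apart here.

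Of 8 cartilage markers 4 were tested, with 2 rising in dispersed cultures and 1 in myofiber-associated cultures. For the difference between the changes limma called 0 (1 higher and 1 lower unadjusted), and 1 was lower in myofiber-associated cells at each time. The medians were 0.39, 0.12, 0.061, -0.60 and -0.25, and the mean sums 2108, 3068, 1991 and 2486, with Sox9 brightest. Col2a1 rose by 1.18 in dispersed and by 2.19 in myofiber-associated cultures, and Matn3 was well above background on 0 of 16 arrays.

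Of 7 melanocyte markers on the array, which cover a lineage that shares Sox10 with Schwann cells, 2 were tested. Limma called 0 in dispersed cultures (0 at an unadjusted p under 0.05), 0 in myofiber-associated cultures (1 lower unadjusted) and 0 for their difference (1 higher unadjusted), and 1 was higher in myofiber-associated cells at each time, Mitf, by 1.57 at 48 hr and 0.99 at 72 hr. The medians were 0.015, -0.32, 0.33, 0.89 and 0.56, and the mean sums 1527, 1560, 4257 and 2992, with Mitf brightest. Of the defining pigment genes, Tyr was well above background on all 16 arrays, with group means between 6.07 and 6.31, whereas Tyrp1 was on 0 of 16, Dct on 1 and Mlana on 3.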

How the data were processed

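Each of the 16 RNA samples, 4 in a group, was measured on an Agilent mouse array in 1 color. The deposited scanner files hold spot intensity from Agilent Feature Extraction 11.0.1.1, which the authors' scanner software had background-subtracted and detrended within each array but not normalized between arrays, with probe positions of build mm9. A second deposited table, made by the authors with limma, gives for every 72 hr array the log2 ratio to the 48 hr average of the same culture, and its 8 columns served as an alternative. Here gProcessedSignal was log2-transformed without control spots and outlier spots. Loess normalization (span 0.3, 4 iterations) used the averaged 48 hr arrays of the culture as the reference and was followed by quantile normalization over all 16. Copies of a probe were averaged, and the brightest probe by its overall mean represented a gene. Genes with a median log2 signal of at least 5 were tested with limma 3.58.1 in R 4.3.3 with data.table (version 1.17.8), on the 8 arrays compared or on all 16 for the difference between changes, with Benjamini-Hochberg adjustment over all tested genes and a threshold of 0.01. Tests were two-sided. The scripts were tested on simulated data.

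The 5 comparisons were 72 against 48 hr in each culture, the difference between these changes, and myofiber-associated against dispersed cultures at each time. All 8 Schwann cell genes were named, and from each of 14 lists at most 3 genes, those with the largest change past the threshold in any comparison. The lists were Schwann transcription factors, other myelin genes, other Schwann lineage genes, GDNF family genes, neurotrophins and neuregulins, and markers of myogenic cells, melanocytes, adipocytes, neurons, cartilage, endothelium, leukocytes, fibroblasts, and pericytes with smooth muscle. Further defining markers of each cell type were chosen with the lists, and some of the genes examined are not reported here. Members and lists were chosen with earlier results of these data known. The replicates were separate preparations by the study's methods. Alternatives were 75th percentile scaling, quantile normalization without loess, normexp background (offset 50), no filter or a filter by the background flag, the mean of a gene's probes, 1 fit of all 16 arrays, the slide row as a block, the deposited ratios, a threshold of 0.05, a stricter background limit and leaving out arrays. Leaving out the 2 arrays treated with reserve together was added after the data had been seen. Gene names are those of the array design and can be old. Positions of build mm9 were not set against a genome here.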

Additional observations from a re-analysis of the deposited data

Results flagged for a closer look

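Among 104 groups of 4 arrays examined (44 of single probes, 56 of list sums and 4 of the share of spots above background), 3 held an array whose gap to the nearest other, as a share of the group's range, passed the critical value of Dixon's test, and chance gives about 1 in 20 groups. For S100b on replicate 3 of the myofiber-associated 72 hr arrays this share was 0.785 and did not pass, against 0.834 for the Cdh19 array named next. Cdh19 read 4.80 on replicate 7 of the myofiber-associated 48 hr arrays, against 3.09 to 3.37 on the others. The summed signal of the neuron markers was 11096 on replicate 5 of the dispersed 72 hr arrays, against 11821 to 11961 on the others. The summed signal of the cartilage markers was 3306 on replicate 8 of the same group, against 2966 to 3012.

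For 8 genes named in the text the change from 48 to 72 hr differed between the cultures at a limma adjusted p under 0.01, given here as the change in dispersed minus that in myofiber-associated cultures. Ngfr differed by -3.52, with changes of -0.95 in dispersed and 2.57 in myofiber-associated cultures. Pax7 differed by -1.49 (0.19 and 1.68), Sdc3 by -1.17 (0.087 and 1.26), Sorcs2 by -1.41 (0.51 and 1.92) and the leukocyte marker Laptm5 by -1.64 (0.90 and 2.55). The fibroblast marker Ly6a differed by -1.63 (-2.35 and -0.71). The endothelial marker Emcn differed by 2.33 (-0.54 and -2.88), and Myog by 4.55 (3.92 and -0.64).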

How the results depend on the processing

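Over all alternatives other than single arrays left out, 298 of the values of single Schwann cell genes kept their direction and side of the threshold, 6 lost the threshold, 12 gained it and 6 turned direction, none of the last having passed it, and of the values of other named genes 825 kept both and 72 lost the threshold. The cause of the changes below was not tested unless given. The direction of Cdh19 for the difference between the changes turned to -0.40 with normexp background and to -0.63 in the deposited ratios. With the mean of all probes, which brings in probes that lean another way, Mbp turned to -0.13 for that difference and to 0.028 between cultures at 72 hr, and Pmp22 to -0.034 in dispersed cultures. Without both arrays treated with reserve, a choice made after seeing the data, Mbp at 48 hr turned to 0.037. In 1 fit of all 16 arrays, 1 member (Sox10) fell in dispersed cultures, with 995 genes called in all, and in myofiber-associated cultures 1 member fell (Pmp22) and 2 rose (Ngfr and Prx), with 5767 genes called. A threshold of 0.05, which admits more genes, gave 2 members higher with time in myofiber-associated cultures (13.5% of all tested genes), and 2 lower and 1 higher for the difference between changes (9.12% and 6.25%). The deposited ratios gave 2 members higher in myofiber-associated cultures with 3779 genes called, and 2 lower and 1 higher for the difference with 3802 genes, in a test that leaves out the spread of the 48 hr arrays. Without both arrays treated with reserve, 1 member was higher in myofiber-associated cultures, and 2 were lower and 1 higher for the difference, with 1486 genes called. Genes called in myofiber-associated cultures numbered 468 with no filter and 558 with the slide row as a block, and 409 for the difference with no filter, where more genes were tested. In the comparisons between cultures, the coding of this block was corrected to a contrast centred on 0 after first results had been seen. The corrected coding called 6504 genes at 48 hr and 3679 at 72 hr, more than the first coding at each time. Leaving out 1 array at a time, the genes called ranged from 1650 to 2468 in dispersed cultures, from 244 to 2000 in myofiber-associated cultures, from 290 to 2343 for the difference between changes and from 3259 to 5628 between cultures at 72 hr, with 0 to 1 members higher in myofiber-associated cultures and 1 to 2 lower for the difference. The same ranges for the difference between changes were -0.70 to 0.24 for S100b, -0.30 to 0.42 for Cdh19, -0.091 to 0.35 for Mbp and -0.98 to -0.70 for Prx. Mbp ranged from -0.073 to 0.022 with time in dispersed cultures, from -0.37 to 0.068 in myofiber-associated cultures and from -0.41 to 0.036 between cultures at 48 hr, and Pmp22 from -0.66 to -0.48 at 48 hr. S100b ranged from -2.54 to -1.64 and Ngfr from -0.095 to 0.30 between cultures at 72 hr, and Ngfr from 2.23 to 3.08 with time in myofiber-associated cultures. Cdh19 has no value under some of these settings, since its median then lies below the filter. The signal over background limits what can be said of Cdh19 in myofiber-associated cultures, of Gfra3 and of the dimmest Mbp probe. No paired analysis was possible because the groups compared share no replicate numbers that mark the same animals.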
